A study of Mus musculus with 6 samples.

Results

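Axon guidance genes encode cell surface receptors and their ligands: Eph receptors and ephrins, semaphorins with their neuropilin and plexin receptors, Slits and Robos, netrins and Unc5 receptors, and the Flrt adhesion proteins. Members were taken by symbol, as protein-coding genes of the GENCODE M21 annotation whose names carry the stem of one of these families. The rule found 73 genes, and the count tables listed 48526 genes in all. Of the 73, Unc50 and Unc5cl share only the letters of the Unc5 stem and are not netrin receptors, so they were set apart, which left 71 guidance genes. RNA was sequenced from primary renal tubular epithelial cells grown from the digested kidney cortex of mice aged 4 to 5 weeks, in culture medium to which 20 ng/ml EGF and 100 nM hydrocortisone had been added. The KO group held 3 cultures from Setd2(F/F)Ksp-Cre+ mice and the WT group 3 cultures from Setd2(F/F) littermates without Cre, so the floxed Setd2 alleles were common to both. Setd2 encodes the methyltransferase that trimethylates lysine 36 of histone H3, and Ksp-Cre is driven by the promoter of Cdh16, which is active in tubule epithelium, so other cells of the cortex should keep the gene. Every KO culture and no WT culture carried Cre, so effects of Cre itself and of the deletion cannot be told apart. Nothing in the labels says whether the 3 replicates of a group were 3 animals, so p-values measure only how these libraries vary, which may be technical in part.

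Guidance receptors were first described on growing axons, but epithelia use the same proteins to sort cells, set borders and remodel junctions. Eph receptors are tyrosine kinases whose ephrin ligands sit on the neighbouring cell, and both partners can signal. Semaphorins act through plexins, which regulate small GTPases, and the secreted class 3 forms mostly need a neuropilin as the binding subunit. Slit2 and Robo2 restrict the outgrowth of the ureteric bud in the embryonic kidney, and netrins repel cells through Unc5 receptors.

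Library totals ran from 86078636 to 106974842 counts. Setd2 itself was at 185, 168 and 152 CPM (counts scaled to a library of 1e6 with TMM factors) in WT replicates 1 to 3 and at 163, 154 and 158 CPM in KO replicates 1 to 3, so gene-level counts did not separate the groups (edgeR adjusted p = 0.481) and do not check the deletion of the floxed exons. Markers of tubular epithelium summed to 6453 to 7495 CPM in WT and 7410 to 7484 CPM in KO. Markers of other cells were far lower: 16.2 to 16.8 CPM in WT and 23.3 to 36.4 CPM in KO for 10 endothelial genes, 105 to 107.6 and 171 to 206 CPM for 8 podocyte genes, 29.1 to 34.3 and 42.5 to 51.1 CPM for 8 leukocyte genes, and 109 to 148 and 109.2 to 186 CPM for 10 fibroblast, pericyte and smooth muscle genes. Xist, transcribed from the inactive X, reached 507 and 606 CPM in KO replicates 2 and 3 and stayed below 1 CPM in the other libraries (Xist-high libraries). Ddx3y, a Y-linked gene, ran from 51.0 to 66.9 CPM in WT and KO replicate 1 and was at 0.084 and 0.0815 CPM in KO replicates 2 and 3. The KO libraries thus did not all come from 1 animal, and the sex difference lay within KO only. In bulk RNA more cells of a type and more RNA per cell cannot be told apart.

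Of the 71 guidance genes, 62 had enough counts to be tested, 8 lay below the filter on low counts with at most 0.136 CPM in any library, and Ntn3 was not analysed here. The edgeR quasi-likelihood test called 22 of the 62 at an adjusted p below 0.05, with 13 higher and 9 lower in KO. That is 35.5% of the tested members, beside 21% of all tested genes, 3698 of 17571 (12.0% higher and 9.08% lower) and 24.1% of the tested protein-coding genes. Called with a log2 fold change of at least 1 in either direction were 5 of the 62 members. That is a larger share than the 4.66% of all tested genes (819 of 17571). Of these members Flrt3 and Slit2 were lower, and Ephb1, Robo4 and Slit1, each with a mean below 1 CPM, were higher. The 3 KO libraries lay entirely above the 3 WT libraries in 22 members and entirely below in 15, 59.7% of those tested. Over all tested genes those shares were 20.6% above, 21.3% below and 41.9% in all. The log2 fold change was above 0 in 64.5% of the members and in 48.9% of all tested genes. The median log2 fold change of the 62 was 0.26, beside -0.01 for all tested genes. The Slits, the class 4 semaphorins and the ephrins each held genes that rose and genes that fell.

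**Figure D1:**
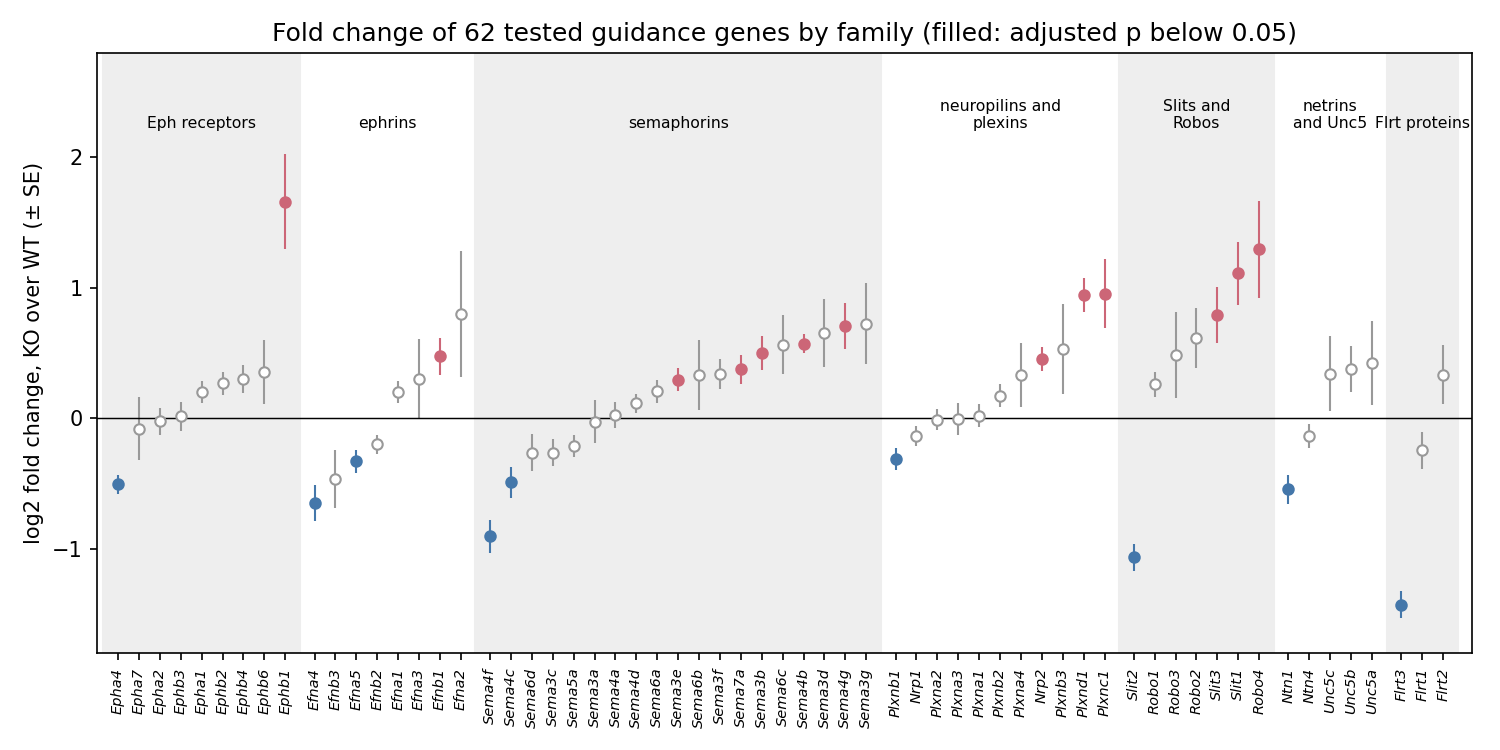
Log2 fold change of KO over WT (vertical axis, ± SE) for the 62 tested guidance genes, ordered within each family. Filled points passed the edgeR test (13 higher in red, 9 lower in blue) and open points did not; Flrt3 at -1.43 and Ephb1 at 1.66 are the extremes.

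Direction and level went together among the called members. The 5 called genes with a mean below 1 CPM (Ephb1, Robo4, Slit1, Slit3 and Plxnc1) were all higher in KO, whereas of the 16 called genes with at least 5 CPM 7 were higher and 9 lower. The same tilt stood in the whole table, where 561 called genes below 1 CPM were higher and 132 lower, against 1092 higher and 1301 lower at 5 CPM or more. Per kb of annotated exon, the most abundant members were Plxnb2 (116 CPM per kb), Epha2 (97.9), Sema3c (45.0), Nrp1 (28.4) and Ephb4 (27.4), and none of these 5 was called. The called members below 1 CPM reached at most 0.136 CPM per kb (Slit3).

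**Figure D2:**
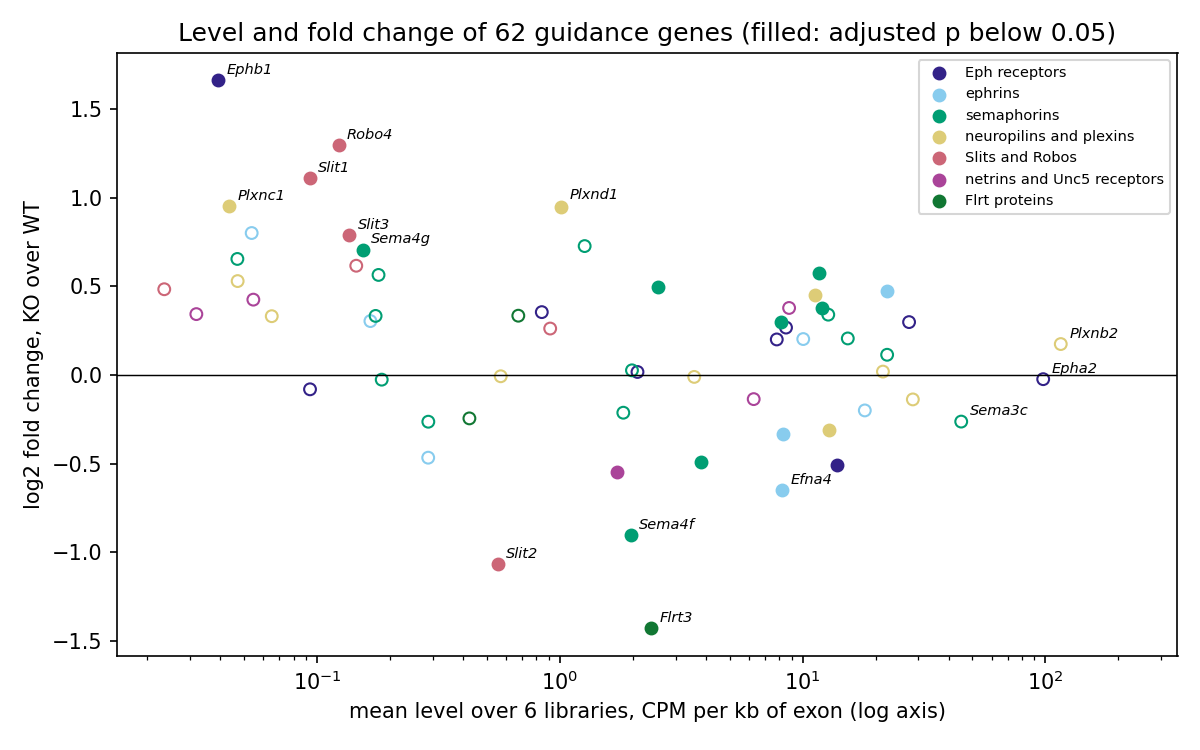
Mean level over the 6 libraries (horizontal log axis, CPM per kb of exon) against log2 fold change of KO over WT for 62 guidance genes, coloured by family, with filled points for an adjusted p below 0.05. The lowest called genes, Ephb1 to Slit3, lie above 0, and the most abundant, Plxnb2, Epha2 and Sema3c, lie between -0.26 and 0.17 and were not called.

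Calls for 7 members held under all 16 alternative fits: Flrt3, Slit2, Ntn1 and Epha4 were lower and Plxnd1, Nrp2 and Sema4b were higher in each. No called member changed sign under any of them. The promoters of 2 that fell and 2 that rose are shown because they show how unlike the start regions of these genes are. Each is the 250 bases before the RefSeq start (GRCm38.p6), read 5′ to 3′ on the gene's strand, and capitals mark a TATA box (TATAAA), a GC box (GGGCGG) or a CCAAT box on either strand.
Flrt3 (chr2:140671477-140671726, minus strand): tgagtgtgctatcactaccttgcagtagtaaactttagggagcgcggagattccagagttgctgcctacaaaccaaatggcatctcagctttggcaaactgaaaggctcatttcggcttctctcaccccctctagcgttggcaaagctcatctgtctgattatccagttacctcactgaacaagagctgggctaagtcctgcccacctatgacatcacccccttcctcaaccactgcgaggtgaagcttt
Slit2 (chr5:47982905-47983154, plus strand): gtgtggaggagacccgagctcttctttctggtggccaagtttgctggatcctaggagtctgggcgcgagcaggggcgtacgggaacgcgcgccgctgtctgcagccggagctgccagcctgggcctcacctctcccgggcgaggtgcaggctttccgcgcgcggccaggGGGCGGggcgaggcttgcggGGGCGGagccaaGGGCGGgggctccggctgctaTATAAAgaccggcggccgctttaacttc
Plxnd1 (chr6:115995006-115995255, minus strand): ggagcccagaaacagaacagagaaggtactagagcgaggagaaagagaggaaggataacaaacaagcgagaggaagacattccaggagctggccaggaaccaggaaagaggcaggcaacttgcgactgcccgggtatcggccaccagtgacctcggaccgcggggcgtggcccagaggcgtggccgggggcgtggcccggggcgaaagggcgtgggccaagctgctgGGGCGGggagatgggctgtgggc
Nrp2 (chr1:62703067-62703316, plus strand): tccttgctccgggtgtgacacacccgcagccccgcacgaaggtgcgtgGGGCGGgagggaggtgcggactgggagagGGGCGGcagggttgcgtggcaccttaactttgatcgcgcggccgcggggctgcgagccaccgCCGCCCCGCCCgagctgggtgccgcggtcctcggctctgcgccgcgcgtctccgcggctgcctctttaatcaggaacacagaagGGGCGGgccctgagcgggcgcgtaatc
The Flrt3 window held 5 CpG dinucleotides, 50.0% G and C, and none of the 3 motifs. The Slit2 window held 25 CpG dinucleotides, 3 GGGCGG matches and a TATAAA match near its end. Plxnd1 had 16 CpG dinucleotides with 1 GGGCGG match, and Nrp2 had 32 with 5, a pair of them overlapping. Of all 32851 windows in the table, 12.4% held TATAAA, 32.7% GGGCGG and 33.8% CCAAT, with a median of 6 CpG dinucleotides. Called members had CpG-rich windows in both directions, with a median of 18.5 in 12 windows of genes that rose and 15 in 9 windows of genes that fell, and 12.5 in 48 windows of genes that were not called. GGGCGG stood in 9 of the 12, 6 of the 9 and 33 of the 48, or 75.0%, 66.7% and 68.8%. Letters in a window are a description and show no binding.

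Among Eph receptors 1 rose, 1 fell and 7 of the 9 tested did not pass. Epha4, a receptor that binds ephrins of both classes (ENSMUSG00000026235, GRCm38 chromosome 1, 77367185 to 77515088), was at 137, 126 and 131 CPM in WT and at 87.4, 95.2 and 94.5 CPM in KO. Every KO library lay well below every WT library, and Epha4 changed by a log2 fold of -0.51 ± 0.07 (SE; edgeR adjusted p = 0.000759). Ephb1 (chromosome 9, 101922128 to 102354693) rose from a trace: its counts were 12, 13 and 13 in WT and 22, 38 and 59 in KO, or 0.132 ± 0.009 against 0.416 ± 0.176 CPM (SD, n = 3 each). Its log2 fold change of 1.66 ± 0.36 (adjusted p = 0.00942) was 0.92 with a term for the Xist-high libraries (adjusted p = 0.256), and KO replicate 3 stood highest.

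Epha2, the dominant A receptor with 81.8% of the class's summed level per kb, was at 392, 459.8 and 532 CPM in WT and 449, 461 and 452 CPM in KO. WT spread around the KO values, and the log2 fold change was -0.02 ± 0.10 (adjusted p = 0.89). Beside Ephb1, the B receptors Ephb2, Ephb4 and Ephb6 leaned higher without passing, while Ephb3 stayed level (log2 fold change 0.02 ± 0.11). Ephb4, the main B receptor, was at 94.1, 118 and 131 CPM in WT and 132, 144 and 145 CPM in KO, and Ephb2 at 83.5, 108 and 102 against 119.9, 117 and 116 CPM. Neither gene's groups overlapped, with log2 fold changes of 0.30 ± 0.11 (adjusted p = 0.0677) and 0.27 ± 0.09 (adjusted p = 0.058). Without WT replicate 3 Ephb4 passed (0.41, adjusted p = 0.014), as did Ephb6 (0.71, adjusted p = 0.0311), and without WT replicate 2 Ephb2 passed (0.35, adjusted p = 0.0387). Ephb2 and Ephb4 also passed in DESeq2, at adjusted p-values of 0.0385 and 0.0395. Of 16 alternatives, Ephb2 was called in 7, Ephb4 in 5 and Ephb6 in 1. Epha1, Epha7, Ephb3 and Ephb6 made up the rest of those tested, and Epha3, Epha5, Epha6, Epha8 and Epha10 lay below the filter.

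Ephrins, the ligands of these receptors, went both ways, with 2 lower, 1 higher and 5 not called. Efna4, a membrane-anchored A ephrin (chromosome 3, 89333390 to 89338028), fell from 13.1, 15.5 and 19.8 CPM in WT to 9.62, 10.1 and 11.0 CPM in KO. The log2 fold change was -0.65 ± 0.14 (adjusted p = 0.00767). Of its neighbours on chromosome 3, Efna3, 10.4 kb away, had a log2 fold change of 0.30 ± 0.31 and Efna1, 52.2 kb away, one of 0.20 ± 0.09, and neither was called. Efna5 was at 40.4, 36.6 and 35.2 CPM in WT and 31.7, 29.4 and 28.2 CPM in KO, a log2 fold change of -0.33 ± 0.09 (adjusted p = 0.0211). Its call ended without WT replicate 2 (adjusted p = 0.0519), KO replicate 2 (0.064) or KO replicate 3 (0.0882), and with the Xist term neither A ephrin was called, at log2 fold changes of -0.74 for Efna4 (adjusted p = 0.0683) and -0.24 for Efna5 (0.29).

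Efnb1 (X chromosome, 99136130 to 99148991), a transmembrane B ephrin whose tail also signals and the most abundant ephrin per kb, was at 49.7, 76.3 and 67.6 CPM in WT and 84.1, 80.8 and 104 CPM in KO. Its log2 fold change was 0.48 ± 0.14 (adjusted p = 0.0358), 0.38 with the Xist term (adjusted p = 0.302), and the call was also lost without KO replicate 1 (0.54, adjusted p = 0.0714) and without KO replicate 3 (0.35, adjusted p = 0.158). The WT libraries spread widely, and the lowest KO library exceeded the highest WT library by a small margin. Efnb2, the partner of Ephb4, stood at 132, 138 and 126 CPM in WT and 111, 112 and 122 CPM in KO. All KO values were lower, with a log2 fold change of -0.20 ± 0.07 that did not pass (adjusted p = 0.0699). Efnb2 passed in 1 of 16 alternatives, the fit without WT replicate 3 (-0.23, adjusted p = 0.0457). Summed per kb, the A ephrins went from 28.9 ± 2.04 in WT to 24.8 ± 0.0248 in KO and the B ephrins from 38.3 ± 4.21 to 43.0 ± 4.64 (CPM per kb, SD, n = 3 each).

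**Figure D3:**
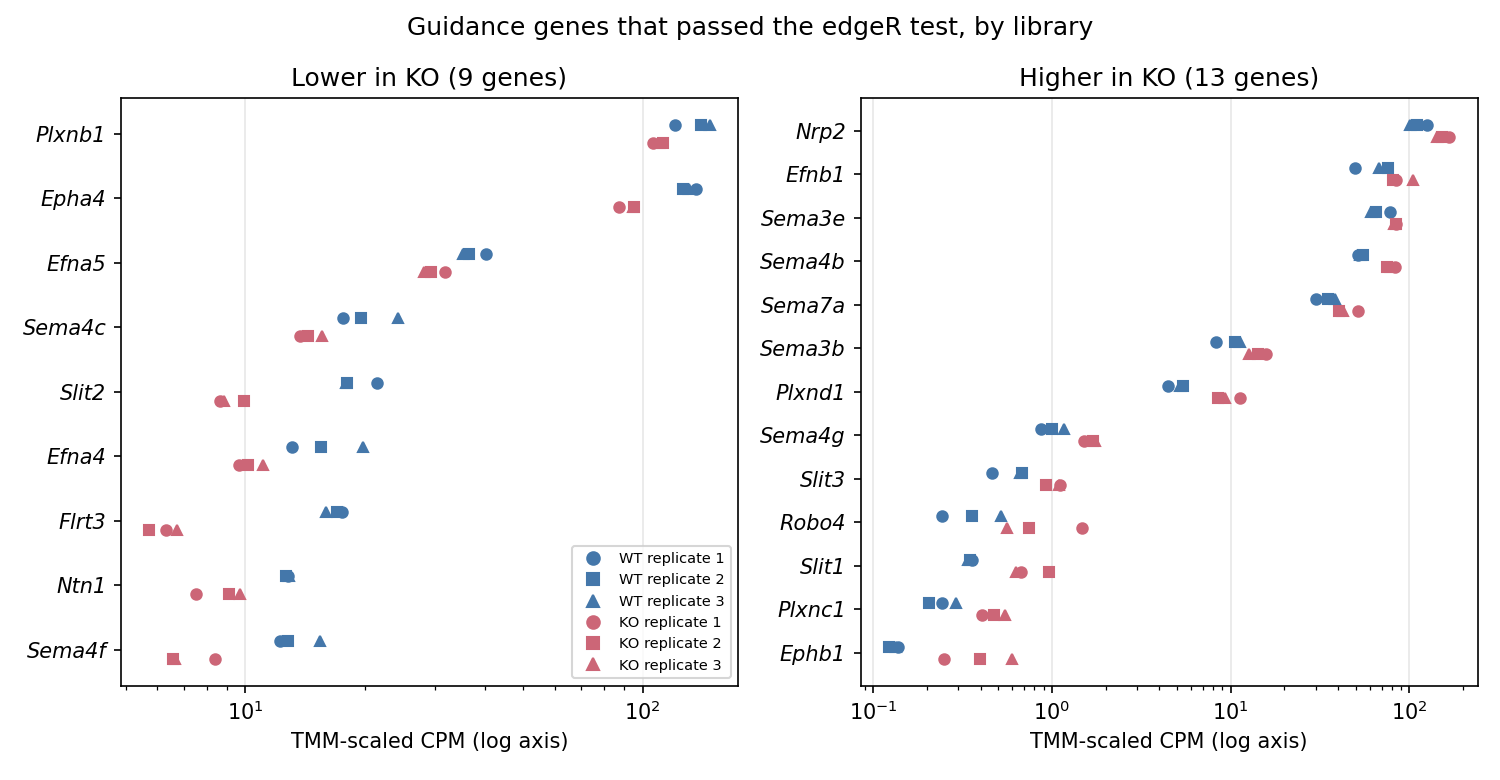
Level of each called guidance gene in every library (horizontal log axis, TMM-scaled CPM), WT in blue and KO in red, with the marker giving the replicate. The 9 genes at left were lower and the 13 at right higher in KO, and WT and KO libraries do not overlap for any of them.

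Semaphorins held 7 of the 22 calls, 5 higher and 2 lower among 19 tested. Of the class 4 genes, which are transmembrane ligands, 4 of 6 changed, in opposite directions: Sema4b and Sema4g rose, Sema4f and Sema4c fell, and Sema4a and Sema4d did not pass. Sema4b (chromosome 7, 80186841 to 80226527) was at 51.2, 55.2 and 53.1 CPM in WT and 82.7, 75.3 and 79.1 CPM in KO. The groups were tight and well apart, with a log2 fold change of 0.57 ± 0.07 (adjusted p = 0.000465). Sema4f (chromosome 6, 82911885 to 82939769) was at 12.2, 12.8 and 15.4 CPM in WT and 8.39, 6.59 and 6.64 CPM in KO. The fall of 0.90 on the log2 scale (SE 0.13, adjusted p = 0.000879) was 0.68 when only KO replicate 1 stood for KO, where it did not pass (adjusted p = 0.0716). Sema4c fell from 17.6, 19.6 and 24.2 CPM to 13.8, 14.4 and 15.6 CPM (log2 fold change -0.49 ± 0.12, adjusted p = 0.0143). That call ended without KO replicate 1 (-0.43, adjusted p = 0.0816) and with the Xist term (-0.57, adjusted p = 0.0911). Sema4g rose at a low level, from 0.869, 0.998 and 1.17 CPM to 1.52, 1.69 and 1.75 CPM (log2 fold change 0.71 ± 0.18, adjusted p = 0.0174). It lost its call without WT replicate 2 (adjusted p = 0.0558), without KO replicate 3 (0.063) and with the Xist term (0.58, adjusted p = 0.188). Sema4d, the most abundant of the class and a ligand of Plxnb1, stood at 156, 164 and 173 CPM in WT and 184, 178 and 172 CPM in KO (adjusted p = 0.272).

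Among the secreted class 3 semaphorins, Sema3b and Sema3e rose and 5 did not pass. Sema3b (chromosome 9, 107597674 to 107609229) was at 8.29, 10.6 and 11.3 CPM in WT and 15.9, 14.2 and 12.7 CPM in KO, a log2 fold change of 0.50 ± 0.13 (adjusted p = 0.0198) that was 0.43 without KO replicate 1 (adjusted p = 0.0896). With the Xist term it was 0.65 and narrowly missed the threshold (adjusted p = 0.0541). Sema3f, 72.3 kb away, had all KO values above all WT values but an adjusted p of 0.058, which fell to 0.0224 without WT replicate 3 and to 0.0246 in DESeq2. Sema3f was called in 6 of 16 alternatives. Sema3e, which signals through Plxnd1 without a neuropilin, was at 77.4, 64.7 and 60.7 CPM in WT and 83.7, 83.7 and 81.8 CPM in KO (log2 fold change 0.30 ± 0.09, adjusted p = 0.038). The gap to WT replicate 1 was narrow, and the call was lost without any 1 of 5 libraries, all but WT replicate 1 (adjusted p from 0.0927 to 0.113). With the Xist term the fold was as large (0.31) but was not called (adjusted p = 0.212). Sema3c, the most abundant semaphorin, pointed the other way at 394, 339 and 318 CPM in WT and 328, 280.2 and 269 CPM in KO. Its groups overlapped and its log2 fold change of -0.26 ± 0.10 did not pass (adjusted p = 0.0833), though it did without WT replicate 3 (-0.33, adjusted p = 0.0409). Sema3c was called in 3 of 16 alternatives, with log2 fold changes from -0.34 to -0.097. Sema3g was highest in KO replicate 3, at 11.2 CPM against 2.89 to 5.84 CPM in the other 5 libraries (adjusted p = 0.113), and summed podocyte markers were highest in that library too, a match that was not tested.

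Sema7a, a GPI-anchored semaphorin that binds integrins and Plxnc1, rose from 30.0, 35.1 and 38.2 CPM to 51.4, 40.2 and 42.4 CPM. Its log2 fold change was 0.37 ± 0.11 (adjusted p = 0.0373), and the call was lost without WT replicate 1 (adjusted p = 0.0613), WT replicate 2 (0.0805), KO replicate 1 (0.15) or KO replicate 3 (0.0723). No class 5 or class 6 gene was called. Sema6a, the main class 6 gene, was at 115, 139 and 122 CPM in WT and 154, 133 and 146 CPM in KO (adjusted p = 0.112), and Sema5a at 39.7, 36.8 and 33.3 against 32.4, 32.2 and 30.2 CPM (adjusted p = 0.103). Sema5a passed in 1 of 16 alternatives, the fit without WT replicate 3 (adjusted p = 0.0431).

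Among the neuropilins and plexins 3 rose, 1 fell and 7 of the 11 tested did not pass. Nrp2, a neuropilin that pairs with plexins and binds class 3 semaphorins and VEGF-C (chromosome 1, 62703285 to 62818695), was at 126, 111 and 101 CPM in WT and 167, 151 and 143 CPM in KO. The KO libraries were all higher, with a log2 fold change of 0.45 ± 0.09 (adjusted p = 0.00661). Nrp1, with 71.7% of the neuropilin level per kb, was at 304, 276 and 295 CPM in WT and 254, 257 and 284 CPM in KO, and its log2 fold change of -0.14 ± 0.08 did not pass (adjusted p = 0.218). Their sum stayed close, at 39.3 ± 2.16 CPM per kb in WT and 40.1 ± 1.04 CPM per kb in KO.

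Plxnd1, the receptor of Sema3e and in textbooks a plexin of endothelium (ENSMUSG00000030123, chromosome 6, 115954811 to 115995005), rose from 4.47, 5.39 and 5.24 CPM to 11.3, 8.51 and 9.35 CPM. The log2 fold change was 0.95 ± 0.13 (adjusted p = 0.000725), with KO replicate 1 highest. Plxnc1 rose at a trace level, with 21, 22 and 28 counts in WT and 36, 45 and 54 in KO (log2 fold change 0.95 ± 0.26, adjusted p = 0.0264). Its call did not hold in DESeq2 (adjusted p = 0.0533), with the Xist term (0.73, adjusted p = 0.271), or without WT replicate 1 (0.0515), WT replicate 2 (0.0926), KO replicate 2 (0.0622) or KO replicate 3 (0.10). Plxnb1, the Sema4d receptor (chromosome 9, 109095389 to 109119917), fell from 120.4, 140.05 and 148 CPM to 106, 113 and 109.7 CPM. The log2 fold change of -0.31 ± 0.08 (adjusted p = 0.0224) was not called without WT replicate 2 (adjusted p = 0.0726), any 1 KO library (0.054 to 0.125) or with the Xist term, where the log2 fold change was -0.35 (0.14). Plxnb2 carried 90.0% of the B plexin level per kb and was at 763, 846 and 908 CPM in WT and 965, 969 and 907 CPM in KO (log2 fold change 0.17 ± 0.09, adjusted p = 0.163). No A plexin was called, and Plxna1, the main one, averaged 193 ± 22.7 CPM across WT and 195 ± 3.39 CPM across KO.

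Slits and Robos had the highest share of calls, 4 of 7, and the sharpest split. Slit2, a secreted ligand of the Robos (chromosome 5, 47983138 to 48307733), fell from 21.4, 18.0 and 17.9 CPM in WT to 8.64, 9.89 and 8.85 CPM in KO. The gap between groups was wide, with a log2 fold change of -1.07 ± 0.10 (adjusted p = 9.76e-05). Its paralogs rose at levels below 2 CPM. Slit1 had 31, 37 and 33 counts in WT and 59, 92 and 62 in KO (log2 fold change 1.11 ± 0.24, adjusted p = 0.00941), and Slit3 had 40, 72 and 64 against 98, 88 and 108 (0.79 ± 0.21, adjusted p = 0.0238). With the Xist term neither call held, at log2 fold changes of 0.93 (adjusted p = 0.13) and 0.88 (0.109), and Slit3 also lost its call without WT replicate 1 (0.055), KO replicate 1 (0.0771) or KO replicate 3 (0.0758). Because Slit2 made up 70.8% of the Slit level per kb, the 3 genes together went from 0.909 ± 0.061 CPM per kb in WT to 0.659 ± 0.040 CPM per kb in KO, 0.724 times as high. That share and ratio depend on annotated exon length, 25433 bp for Slit2 but 5921 bp for Slit1 and 6067 bp for Slit3. In CPM Slit2 weighs more: it averaged 19.1 in WT and 9.13 in KO, Slit1 0.350 and 0.756, and Slit3 0.601 and 1.05.

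Robo4, the Robo of endothelium (chromosome 9, 37401897 to 37415115), was at 0.243, 0.358 and 0.518 CPM in WT and 1.47, 0.746 and 0.560 CPM in KO. KO replicate 1 stood far above the rest, and the log2 fold change of 1.30 ± 0.37 (adjusted p = 0.0308) was 0.81 without it (adjusted p = 0.141). The call also ended without WT replicate 1 (1.09, adjusted p = 0.0684) or WT replicate 2 (1.26, adjusted p = 0.0836). With the Xist term, where KO replicate 1 alone carries the contrast, it was 1.97. Of 10 endothelial markers 6 rose and none fell, beside 12.0% of all tested genes called higher. Their sum was highest in KO replicate 1 at 36.4 CPM, beside 27.2 and 23.3 CPM in the other KO libraries. None of the 10 was at 0 in WT. Markers of other cells rose too, with 5 of 8 tested called higher for podocytes, 5 of 8 for fibroblasts, pericytes and smooth muscle, and 3 of 8 for leukocytes, and none lower. Among the fibroblast, pericyte and smooth muscle calls, Thy1 had 6, 6 and 8 counts in WT and 25, 32 and 22 in KO. It passed the filter only through KO, so its call is no support. Tubular epithelium markers had 2 of 8 called higher and none lower. The leukocyte sum was also highest in KO replicate 1, at 51.1 CPM. The part of any of these cells in the rise of Robo4 and of Plxnd1 was not tested. The kidney receptors of Slit2 leaned higher without passing: Robo1 was at 12.7, 15.1 and 13.2 CPM in WT and 17.2, 15.6 and 16.5 CPM in KO (log2 fold change 0.26 ± 0.10, adjusted p = 0.0745), and Robo2 at 2.10, 1.53 and 2.22 against 2.19, 2.68 and 4.06 CPM (0.62 ± 0.23, adjusted p = 0.0746). Robo2 passed without KO replicate 1 (0.81, adjusted p = 0.0474) and in DESeq2 (0.62, adjusted p = 0.0296). It was called in 4 of 16 alternatives, with log2 fold changes from 0.17 to 0.81, and Robo1 was called in 1. The summed Robo level was 1.03 ± 0.072 CPM per kb in WT and 1.37 ± 0.101 CPM per kb in KO.

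**Figure D4:**
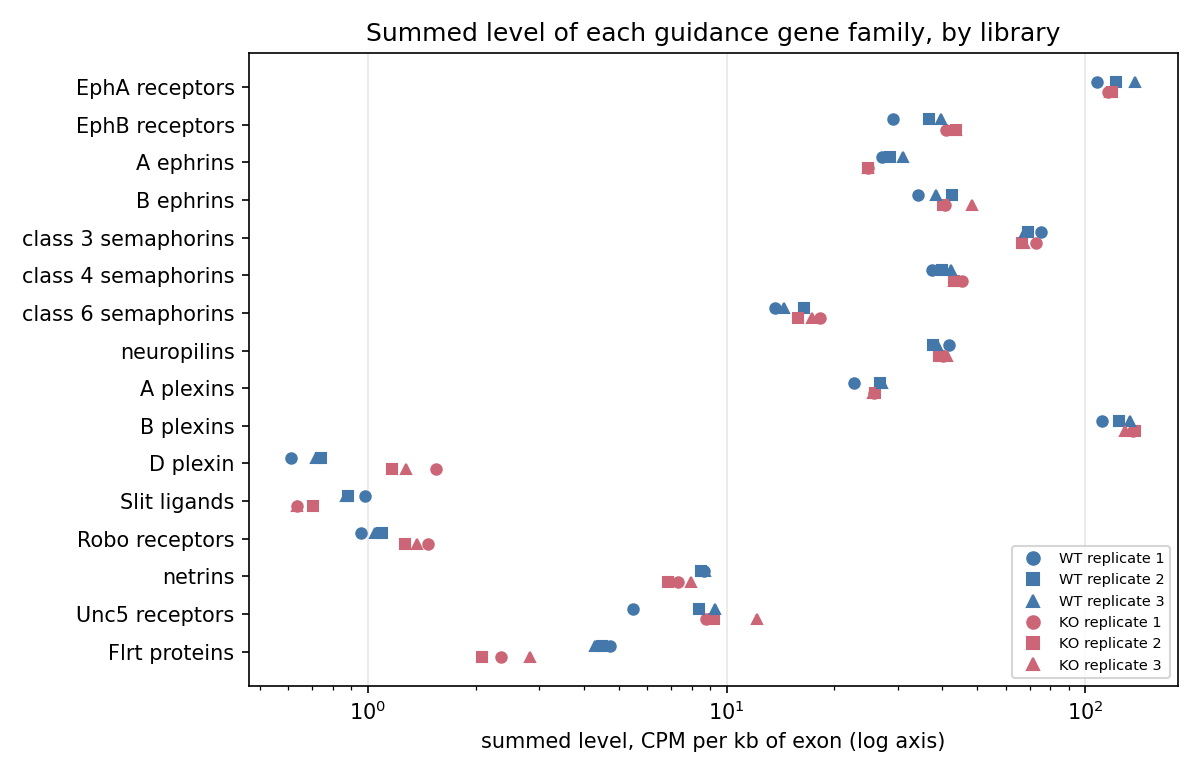
Summed level of each family in every library (horizontal log axis, CPM per kb of exon), WT in blue and KO in red, with the marker giving the replicate. The Slit and Flrt sums were lower in all 3 KO libraries and the D plexin and Robo sums higher, while the abundant EphA, neuropilin and A plexin sums overlapped.

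Ntn1 was the only netrin or Unc5 gene called. Netrin-1, a secreted laminin-like cue (ENSMUSG00000020902, chromosome 11, 68209364 to 68400823), was at 12.8, 12.6 and 12.9 CPM in WT, a very narrow range, and at 7.51, 9.08 and 9.69 CPM in KO. The log2 fold change was -0.54 ± 0.11 (adjusted p = 0.00584). Ntn4, a basement membrane netrin with 78.5% of the summed netrin level per kb, was at 24.7, 24.3 and 24.9 CPM in WT and 22.9, 20.2 and 24.1 CPM in KO (adjusted p = 0.293). Unc5b, which holds 99.0% of the Unc5 level per kb, was at 33.9, 52.0 and 57.7 CPM in WT and 54.3, 57.0 and 75.4 CPM in KO. Those groups overlapped, and the log2 fold change of 0.38 ± 0.17 did not pass (adjusted p = 0.143). Unc5d lay below the filter, with 0, 1 and 1 counts in WT and 5, 8 and 7 in KO. In the fit with no filter beyond a total count of 1 it was called higher (adjusted p = 0.0224).

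Flrt3 had the largest fall of the 62. The gene encodes a leucine-rich repeat protein that binds Unc5 receptors and latrophilins and weakens cadherin adhesion in the embryo (ENSMUSG00000051379, chromosome 2, 140650914 to 140671469). It was at 17.5, 17.0 and 15.9 CPM in WT and at 6.29, 5.71 and 6.73 CPM in KO. Even the highest KO library was far below the lowest WT library, and the log2 fold change was -1.43 ± 0.10, a 2.69-fold fall (adjusted p = 1.17e-05). Over the 16 alternatives it ran from -1.49 to -1.37, with adjusted p-values up to 0.00154. Flrt1 averaged 2.7 ± 0.172 CPM across WT and 2.28 ± 0.213 CPM across KO (adjusted p = 0.237), and Flrt2 4.61 ± 0.345 and 5.80 ± 2.27 CPM (adjusted p = 0.308). Flrt2 passed in 1 of 16 alternatives, the fit without KO replicate 2 (adjusted p = 0.0497). Over the 16 its log2 fold change ran from -0.005 to 0.57. The latrophilins Adgrl1 and Adgrl2, which bind Flrt proteins, also fell, by 0.47 and 0.22 on the log2 scale (adjusted p = 0.0186 and 0.0431). Unlike the call of Flrt3, neither call held without WT replicate 2, KO replicate 1 or KO replicate 3. Adgrl3, at a mean of 0.292 CPM, was not called (log2 fold change -0.57 ± 0.32, adjusted p = 0.228).

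Calls fell on 14 of 32 tested ligands (8 higher, 6 lower) and on 8 of 30 receptors and Flrt proteins (5 higher, 3 lower), 43.8% and 26.7%, beside 24.1% of the tested protein-coding genes. The difference between the shares was not tested. Among the ligand and receptor pairs named above, Sema3e and Plxnd1 both rose, as did Sema7a and Plxnc1. Of these genes only Plxnd1 was called in every alternative fit. Flrt3 and the latrophilins Adgrl1 and Adgrl2 all fell, and among them only the call of Flrt3 held in every alternative fit. In the pairs that follow, ligand and receptor were not both called. Slit2 fell while Robo1 and Robo2 leaned higher without passing, and Plxnb1 fell while Sema4d did not pass. Ntn1 fell while Unc5b did not pass, and Efnb2 and Ephb4 leaned opposite ways without passing. Called members spanned a median of 40.2 kb when higher and 27.9 kb when lower, beside 45.1 kb for those not called and 24.5 kb for all tested protein-coding genes.

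Genes that act with these receptors were called at 31.8%, 14 of 44 tested of a list of 49, with 9 higher and 5 lower, beside 24.1% of the tested protein-coding genes. The 6 with the smallest adjusted p all rose. They were Crmp1 (log2 fold change 1.60 ± 0.22) and Dpysl5 (0.50 ± 0.10), collapsin response mediators, Farp2 (0.60 ± 0.09) and Fes (0.80 ± 0.14), which act below plexins, Srgap1 (0.48 ± 0.10), a Robo effector, and Dcc, a netrin receptor. Dcc had 1, 2 and 2 counts in WT and 13, 16 and 11 in KO, so it passed the filter only through KO and its call is no support. Without it 13 of 43 were called (30.2%), 8 of them higher. Adjusted p-values of the 6 ran from 0.000776 (Crmp1) to 0.00766 (Srgap1). Crmp1 was at a low level, with 24, 35 and 36 counts in WT and 79, 108 and 94 in KO, a mean of 0.661 CPM. The 5 that fell were Adgrl1, Adgrl2, Dpysl3, Nck1 and Rhod.

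**Figure D5:**
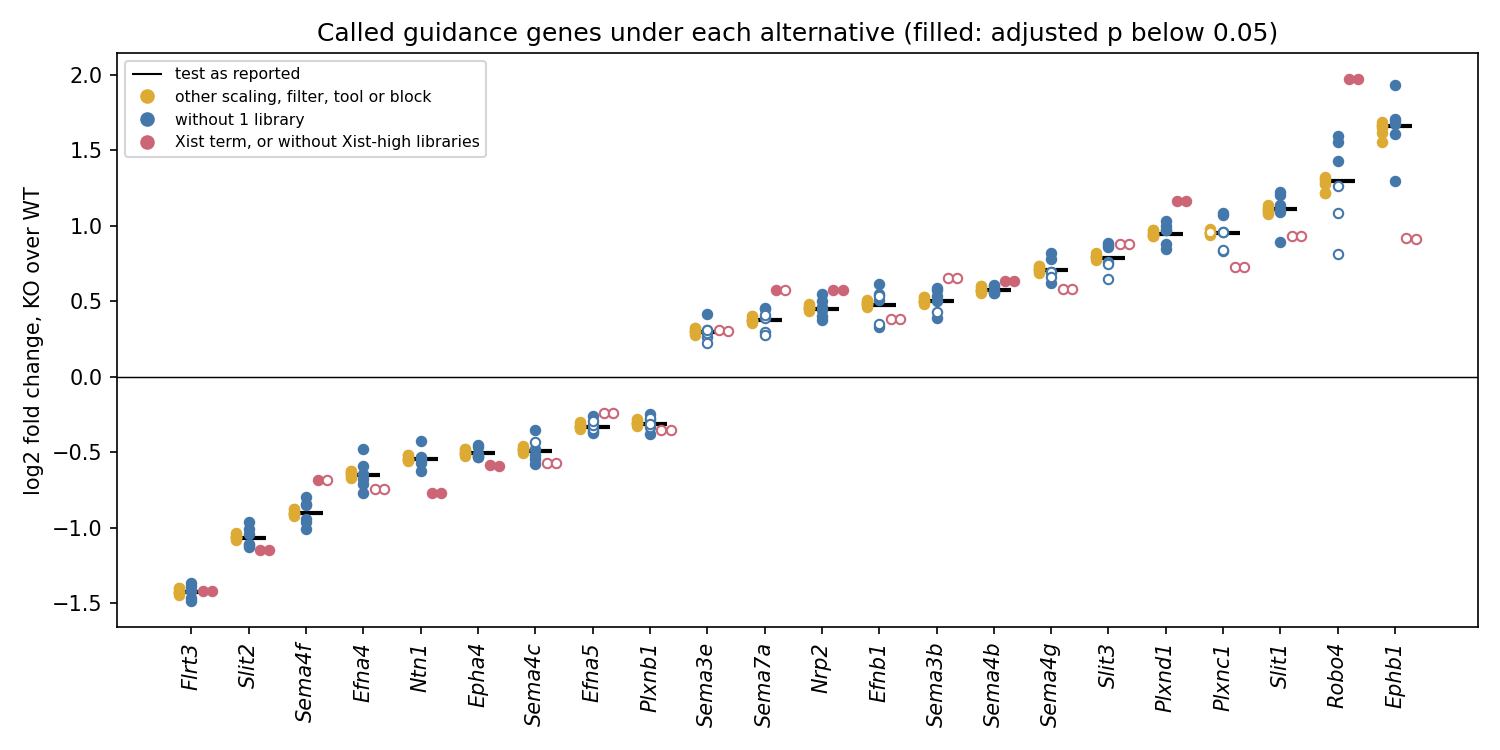
Log2 fold change of KO over WT for the 22 called guidance genes in the test as reported (black bars) and in up to 16 alternatives (the 5 below 1 CPM drop out under a filter on mean level), filled where the adjusted p was below 0.05. Flrt3, Slit2, Ntn1, Epha4, Sema4b, Nrp2 and Plxnd1 are filled throughout, and no gene crosses 0.

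The largest exon overlaps of called members were with genes at far lower levels: 4731419I09Rik, which overlaps 10.5% of the exon bases of Efna4, had at most 0.0941 CPM, and D430040D24Rik, which overlaps 7.27% of Sema4c, at most 0.425 CPM. The strand setting of the counting is not given in the sources used here. Of the genes set apart, Unc50 averaged 26.5 ± 1.61 CPM across WT and 22.6 ± 0.821 CPM across KO (adjusted p = 0.0679) and Unc5cl lay below the filter.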

How the data were processed

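For each of the 6 libraries the authors deposited raw counts of reads by Ensembl gene ID. Per the labels' protocols, an Illumina TruSeq kit was used on total RNA. The submitters' processing notes list mm10, Trimmomatic 0.38, STAR 2.7.1a and HTSeq 0.11.2 but no settings; annotation release and strand setting: not given in the sources used here. Symbols, positions and exon lengths came from GENCODE M21 (GRCm38), which matched 48144 of 48526 genes. Counts were filtered with filterByExpr, scaled with TMM and tested with edgeR 4.0.16 in R 4.3.3 (quasi-likelihood, genotype as the term), with Benjamini-Hochberg adjustment over 17571 genes and a threshold of 0.05. Standard errors were derived from the F statistic. The test was checked on simulated counts. Replicate pairs differed by far more than counting noise. Per-library values were given for up to 4 called members per family with at least 1 CPM, by size of change, and for the most abundant member; other uncalled members and the partners that fell were named after their values were seen. The members, lists, naming rule and alternatives were chosen with earlier results of these data known. Promoter windows of 61 of the 71 guidance genes came from RefSeq (GRCm38.p6). Member windows on chromosome 18, where Sema6a lies, were left out, and the set of all windows had no such filter. Alternatives were a replicate block, other scalings and filters, DESeq2 1.42.0, limma-voom 3.58.1, a covariate marking the Xist-high libraries (above 10 CPM), omitting them, and omitting each library in turn.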

Additional observations from a re-analysis of the deposited data

How the results depend on the processing

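The fit as reported called 3698 genes, the fit with a term for the Xist-high libraries 1163 and the fit without those libraries 907, the last of which leaves 1 KO library whose spread is taken from WT. In the same fits, guidance genes called higher in KO went from 13 to 5 and 4, and those lower from 9 to 5 and 4. With no filter beyond a total count of 1, 20 were higher and 10 lower. Leaving out 1 library at a time gave 1683 to 3766 calls over all genes, 7 to 15 guidance genes higher and 7 to 12 lower, with the fewest calls over all genes without KO replicate 1. The 2 scalings other than library totals raised the count of higher members to 15 and 16. With the replicate number as a block, 19 were higher and 10 lower, and all 22 called members were called. Deviations of same-numbered libraries from their group means correlated at 0.04, -0.15 and 0.03. Deviations within so small a group are tied to each other, so these values cannot tell whether the numbers pair the libraries. No label says what the numbers mark. DESeq2 called 16 higher and 9 lower, limma-voom 13 and 9. By family, semaphorins called higher went from 5 to 2 with the Xist term, ephrins called lower from 2 to 0, and Eph receptors called higher from 1 to 3 with the block. Signalling partners called lower went from 5 to 1 with the Xist term and to 0 without either WT replicate 2, KO replicate 1 or KO replicate 3. The cause was not tested. Depth limits the genes below 1 CPM most: Ephb1 rests on 12 to 59 counts per library.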
